A study of Mus musculus with 30 samples.

Results

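The 10 genes described here encode heat-shock proteins of the cytosol and of mitochondria: Hspa1a, Hspa1b, Dnajb1, Bag3, Hsph1, Hspa8, Hsp90aa1, Hspb1, Hspd1 and Hspe1. They were chosen by symbol, and all 10 were found among the 39179 gene identifiers of the deposited tables. All 10 passed the filter on low counts in each of the fits used below. RNA had been sequenced from the ventral prostate of 30 male mice of strain C57BL/6 (written C57/BL6 in the study's text). Each library came from 1 mouse, with 5 mice in each of 6 groups. After weaning the mice were kept for 12 or 32 weeks on 1 of 3 diets that differed in the source of fat, which was lard (PF), linseed oil (LO) or soybean oil (SO). The labels name no genetic change, and no group on standard chow was sequenced, so the diets are compared with each other. The study's methods describe tests of glucose and insulin tolerance and of resistance to cold late in the diets, and its text says that extra mice served for the work on thermogenesis. The labels do not say which of the sequenced mice had any of these tests, and their part in the members' levels was not tested. The read pairs counted on genes ranged from 27590631 to 41301707 per mouse, with a median of 33684704.

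Heat-shock proteins are chaperones, which hold, refold or hand on other proteins. Many of their genes are switched on within minutes by the transcription factor HSF1 when proteins unfold, and the same genes also respond to how a tissue was handled before its RNA was preserved. In the prostate, the androgen receptor is among the known clients of the HSP90 and HSP70 chaperones.

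The members differ in role. Hspa1a and Hspa1b are neighbouring, near-identical genes for the inducible HSP70. Dnajb1 encodes an HSP40 that delivers clients to HSP70, and Bag3 and Hsph1 encode nucleotide exchange factors that release them. Hspa8 encodes the constitutive HSP70, and Hsp90aa1 the inducible cytosolic HSP90. Hspb1 encodes a small heat-shock protein that binds unfolded proteins without ATP. Hspd1 and Hspe1 encode the chaperonin HSP60 and its lid HSP10 in the mitochondrial matrix and lie head to head on chromosome 1.

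HSF1 binds repeats of the unit GAA in alternating orientation, so the 250 bases before each RefSeq transcription start were searched for adjoining units spaced by 2 bases, GAANNTTC or TTCNNGAA, each of which reads the same on both strands. RefSeq promoter entries on GRCm38.p6 matched 8 of the 10 members, with 11 entries, and Hspa8 and Hsp90aa1 had none. Of these 8 members, 6 held at least 1 such pair in at least 1 entry, against 12.8% of 32851 promoter entries. The members were counted by any of their entries and the share by single entries, and 1 of the 2 entries of Hspd1 held no pair. The windows of Hspa1a (chr17:34972157-34972406, minus strand), Hspa1b (chr17:34959239-34959488, minus strand) and Hspb1 (chr5:135887669-135887918, plus strand) are shown because these 3 genes had the largest mean differences between the mice numbered 1 and the others of their group, as described below. Capitals mark the pairs of units.
Hspa1a: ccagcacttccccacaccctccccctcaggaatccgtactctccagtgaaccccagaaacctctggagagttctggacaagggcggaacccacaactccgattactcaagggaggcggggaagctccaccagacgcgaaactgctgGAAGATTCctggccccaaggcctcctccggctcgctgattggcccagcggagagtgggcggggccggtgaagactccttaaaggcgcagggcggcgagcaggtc
Hspa1b: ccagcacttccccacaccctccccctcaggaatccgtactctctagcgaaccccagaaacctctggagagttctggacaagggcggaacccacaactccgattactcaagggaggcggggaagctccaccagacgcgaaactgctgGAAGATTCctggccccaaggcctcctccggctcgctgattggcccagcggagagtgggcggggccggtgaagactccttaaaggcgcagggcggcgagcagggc
Hspb1: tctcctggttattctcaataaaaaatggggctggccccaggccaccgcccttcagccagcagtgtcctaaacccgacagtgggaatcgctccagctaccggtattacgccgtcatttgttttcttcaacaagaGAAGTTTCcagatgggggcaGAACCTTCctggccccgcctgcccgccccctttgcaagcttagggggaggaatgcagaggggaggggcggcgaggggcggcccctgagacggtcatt
The Hspa1a and Hspa1b windows matched at 247 of 250 positions, and in both the pair began 104 bases before the start. Hspb1 held 2 pairs, beginning 117 and 97 bases before the start. None of these 3 windows overlapped an exon of GENCODE M21.

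The remaining matches are shown to compare the length of the repeats.
Hsph1: TTCTCGAA
Hspd1: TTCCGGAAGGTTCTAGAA
Hspe1: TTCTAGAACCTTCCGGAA
The Hsph1 pair lies at chr5:149636362-149636369 (minus strand), inside an annotated first exon. The runs of Hspd1 and Hspe1 are the 2 strands of 1 stretch of 18 bases, chr1:55088059-55088076, which falls in the 5′ untranslated exon of Hspd1 in GENCODE M21, and the windows of both genes share 215 bases. Its 4 units in a row, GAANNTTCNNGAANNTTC or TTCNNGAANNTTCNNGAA, were found in 7 of 32851 promoter entries (0.0213%), those of Hspd1, Hspe1, Arpc2, Fam149a, Kctd18, Gm38873 and Gm41230. At least 3 units in a row were found in 153 entries (0.466%). The windows of Dnajb1 and Bag3 held no pair. A match describes letters in a window, and binding of HSF1 was not measured.

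Levels between genes are compared per length, in CPM (counts scaled to a common library total, on library sizes scaled by the TMM method) per kilobase of exon. Over the 30 mice, Hspa8 stood highest with a mean of 207 CPM per kb, followed by Hsp90aa1 with 61.9, Hspb1 with 59.9 and Hspd1 with 53.1. The last 3 of these lay close together and their ranges over mice overlapped. Hspe1 had 36.2 CPM per kb, Bag3 10.3, Dnajb1 8.9, Hsph1 6.31, Hspa1b 3.91 and Hspa1a 1.46. Among read pairs assigned to 1 gene the inducible HSP70 genes were thus the lowest of the 10, an order that leaves out the pairs with several alignments described next, and Hspa1a rested on 52 to 402 read pairs per mouse, against 19521 to 39990 for Hspa8.

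Counts of several members carry an uncertainty from related sequences, since read pairs with several alignments, 16% to 20.3% of a library's records, were set aside. Of all 100-base stretches of transcript sequence, 56.5% for Hspa1a and 49.9% for Hspa1b occurred in another gene, mostly in each other. The same share was 44% for Hspb1, all of it in the pseudogene Hsp25-ps1, 38% for Hsp90aa1, 28.5% for Hspa8, 23.9% for Hspd1 and 11% for Hspe1. It was 0 for Hsph1, Dnajb1 and Bag3. The libraries were stranded, but the strand setting of the counting is not stated, which touches Hspa1a, overlapped on the opposite strand by Gm20481 over 2225 bases, and Hspd1 and Hspe1, which overlap by 112 bases.

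The labelled tissue was checked against marker genes. All 8 luminal epithelial markers were counted, summing to 2750 to 10100 CPM per mouse, with Pbsn (probasin) the most abundant at a mean of 3470 CPM. Of 6 seminal vesicle markers, 1 had no count in any mouse and all 6 had means under 1 CPM, summing to at most 0.306 CPM in a mouse. Pbsn was low in mouse 2 of LO at 12 weeks (123 CPM) and mouse 5 of SO at 12 weeks (346 CPM), against at least 1840 CPM in every other mouse.

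The mice are numbered 1 to 5 within each group, and the 6 mice numbered 1 stood apart from the others in many genes. Of 16605 genes, 1359 (8.18%) had their highest level in mouse 1 in all 6 groups, while numbers 2 to 5 each had 0 to 2 such genes. Among the members, 2 of 10 did so, Hspa1b and Hspb1, and Hspa1a and Bag3 did so in 5 of 6 groups. In 5 or more groups mouse 1 was thus highest for 4 of 10 members, against 2361 genes (14.2%). Mouse 1 was lowest in all 6 groups for 312 genes (1.88%) and for none of the members. The labels do not say what the number stands for. The libraries numbered 1 held 29125565 to 41301707 read pairs on genes, against 27590631 to 40763802 in the others, and 16% to 20.3% of their records had several alignments, against 16% to 19.6%. The share of records on no gene was 6.67% to 10.7% in the libraries numbered 1 and 8.92% to 12.2% in the others.

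The log2 level of mouse 1 minus the mean of mice 2 to 5 was positive in every group for 4 members. For Hspa1b it was 1.27, 1.26 and 0.93 in LO, SO and PF at 12 weeks and 1.42, 1.68 and 1.15 at 32 weeks. For Hspa1a it ranged from 1.12 to 1.79 with a mean of 1.33, for Hspb1 from 0.49 to 1.09 with a mean of 0.72, and for Bag3 from 0.12 to 0.5 with a mean of 0.34. The other 6 members, inducible and constitutive genes alike, did not share this. The mean difference was -0.16 for Hspd1, -0.12 for Hspe1, -0.14 for Hspa8, -0.22 for Hsph1, -0.04 for Hsp90aa1 and 0.04 for Dnajb1. Hsf1 itself was highest in mouse 1 in 5 of 6 groups, while 14.2% of all genes were so in 5 or more. Hsf2 was lowest in mouse 1 of LO at 12 and 32 weeks (19.9 and 14.3 CPM). It was also lowest in mouse 1 of PF at 12 weeks (17.9 CPM) and of SO at 32 weeks (17.7 CPM), but not in the remaining groups. In a list of 5 heat-shock factor genes, 0 were highest in mouse 1 in all 6 groups, and the sum was highest in mouse 1 in 3 groups.

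**Figure D1:**
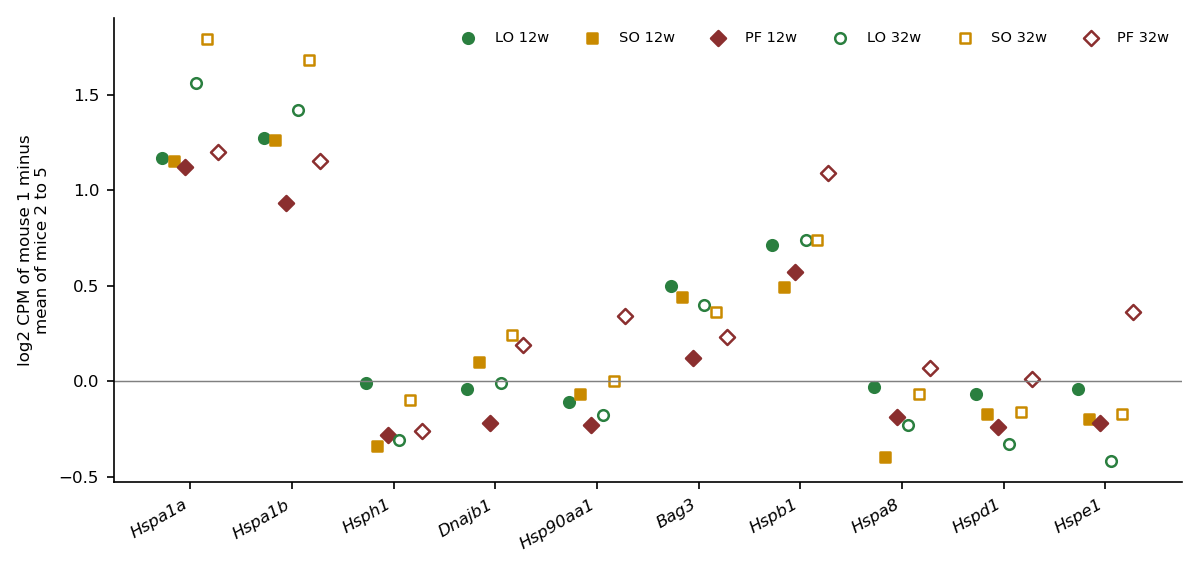
Difference in log2 CPM between the mouse numbered 1 and the mean of mice 2 to 5 of its group, for each member and each of the 6 groups. The differences of Hspa1a and Hspa1b lie between 0.93 and 1.79 in all 6 groups, those of Hspb1 between 0.49 and 1.09, and those of Hspd1 and Hspa8 near or below 0.

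Other lists moved with the mice numbered 1, and their part in the members' levels was not tested. The summed level of 8 smooth muscle markers was highest in mouse 1 in 5 of 6 groups, and 3 of the 8, Cnn1, Des and Smtn, in all 6. Their most abundant gene was Acta2 (mean 862 CPM). At 12 weeks the smooth muscle sum of mouse 1 was 3830, 3090 and 3590 CPM in LO, SO and PF, against 2170 to 3330 CPM in mice 2 to 5, and at 32 weeks it was 3230, 3570 and 2930 CPM against 1950 to 2850 CPM. Of 24 immediate early genes, 5 were highest in mouse 1 in all 6 groups, Junb, Jund, Ier2, Ier3 and Myc, but the list's sum was highest in mouse 1 in 1 group. The sum of 8 skeletal muscle markers was highest in mouse 1 in 3 of 6 groups, reaching 653 CPM in LO at 32 weeks against 66.5 to 94.1 CPM in mice 2 to 5. Among the small heat-shock genes other than Hspb1, Hspb2 was highest in mouse 1 in all 6 groups.

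Within each group Hspa1b spanned a wider range than the 6 group means, which ran from 8.07 CPM in SO to 15.3 CPM in LO, both at 12 weeks. At 12 weeks, LO mice 1 to 5 had 26.9, 15.5, 5.86, 8.56 and 19.7 CPM, SO mice 15, 5.32, 4.77, 8.02 and 7.27 CPM, and PF mice 14, 7.05, 4.96, 6.02 and 13.4 CPM. Mice 1, 2 and 5 of LO were high and mouse 3 was the lowest of each group, and the 3 groups overlapped. At 32 weeks, LO mice had 25.7, 16.5, 8.48, 6.82 and 8.7 CPM, SO mice 20.9, 5.44, 6.39, 8.69 and 5.91 CPM, and PF mice 18.5, 10.6, 10.9, 5.23 and 7.95 CPM. Mouse 1 was the highest of each group, and all groups overlapped again.

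Hspa1a was counted at a lower level. At 12 weeks, LO mice had 10.3, 5.15, 2.12, 3.62 and 10.5 CPM, SO mice 5.7, 2.68, 2.04, 2.82 and 2.68 CPM, and PF mice 6.71, 2.63, 2.17, 2.71 and 5.61 CPM. Mice 1 and 5 of LO stood above every SO and PF mouse, while LO mouse 3 lay among the lowest, so that the groups overlapped. Group means at 32 weeks were 5.1 CPM in LO, 3.46 in SO and 3.99 in PF, with a range of 1.48 to 10.4 CPM over mice.

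**Figure D2:**
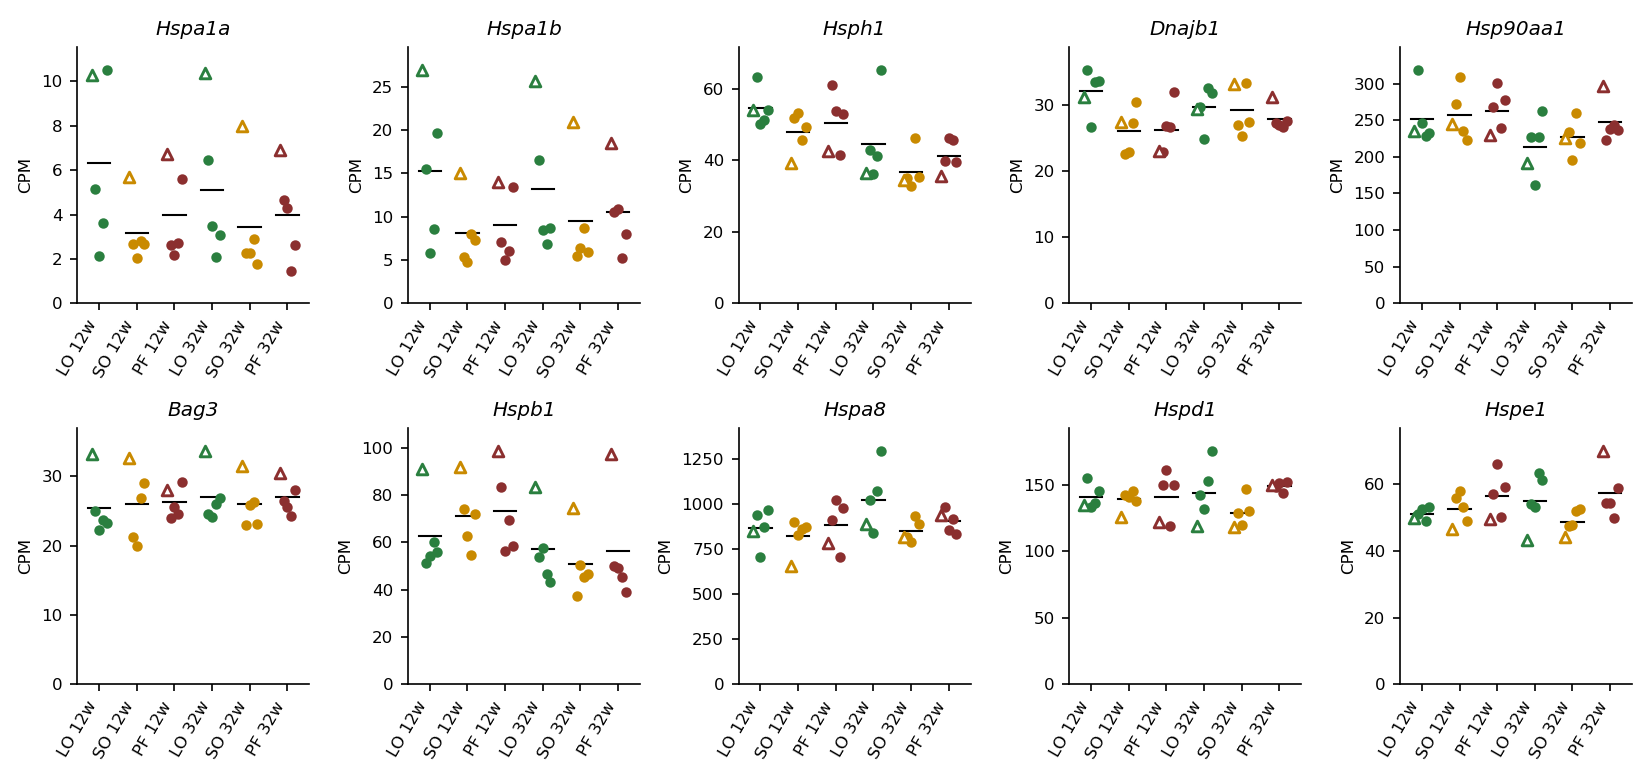
Level of each member in CPM in each of the 30 mice, by diet and time point; open triangles are the mice numbered 1 and bars are group means. For every member the groups overlap, and the triangles lie at the top of each group for Hspa1b and Hspb1.

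The largest difference between diets was that of Hspa1a and Hspa1b between LO and SO at 12 weeks, and it did not pass the correction over all genes. The log2 fold change was 1 ± 0.44 (SE) for Hspa1a (unadjusted p = 0.0374, edgeR adjusted p = 0.999), with 4 of 5 LO mice above the SO median. For Hspa1b it was 0.92 ± 0.42 (unadjusted p = 0.0414, edgeR adjusted p = 0.999), also with 4 of 5 LO mice above the SO median. When the mice numbered 1 were left out, the values were 1.07 and 0.97, with edgeR adjusted p of 1. At 32 weeks the same differences were 0.58 ± 0.52 for Hspa1a and 0.5 ± 0.46 for Hspa1b. The change of the LO against SO difference from 12 to 32 weeks was tested as an interaction and was -0.43 ± 0.71 for Hspa1a and -0.44 ± 0.65 for Hspa1b (edgeR adjusted p = 1 for both).

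Immediate early genes, which respond to handling as well as to signals, moved with the LO against SO difference of Hspa1a and Hspa1b at 12 weeks. Of 23 tested, 21 were higher in LO than in SO, with a median log2 fold change of 0.63 against 0.00 over all genes. Both edgeR and DESeq2 called 0 of them, and 11 had an unadjusted p under 0.05, led by Jun (1.58 ± 0.42), Zfp36 (0.83 ± 0.22) and Dusp1 (1.8 ± 0.5). Their summed level was 648, 962, 699, 858 and 1900 CPM in LO mice 1 to 5, 641, 452, 749, 478 and 562 CPM in SO mice and 752, 1040, 652, 912 and 1380 CPM in PF mice. Among mice 2 to 5 the order of this sum was that of Hspa1b in LO and in PF but not in SO, and mouse 1, the highest of each group for Hspa1b, was not the highest for the sum. The most abundant gene of the list was Btg2 with a mean of 200 CPM, and none was without counts. In PF against SO at 12 weeks the list was also higher, in 23 of 23 genes with a median of 0.71, 0 called by edgeR or DESeq2 and 13 at an unadjusted p under 0.05. That comparison shares the SO mice, and in it the log2 fold changes of Hspa1a (0.33 ± 0.44) and Hspa1b (0.18 ± 0.42) were smaller. Cell markers also moved at 12 weeks. In LO against SO, 10 of 10 leukocyte markers were higher with a median of 0.5, 0 called by edgeR or DESeq2 and 2 at an unadjusted p under 0.05. In PF against SO, 10 of 10 were higher with a median of 1.08, 0 called by edgeR, 6 by DESeq2 and 9 at an unadjusted p under 0.05. Their sum was 229, 118, 178, 285 and 283 CPM in LO mice, 131, 159, 162, 169 and 188 CPM in SO mice and 376, 377, 432, 306 and 190 CPM in PF mice. In LO against SO all 8 smooth muscle, 5 endothelial and 5 erythroid markers were higher, with medians of 0.1, 0.13 and 0.36 and 0 called by edgeR, by DESeq2 or at an unadjusted p under 0.05. The part of handling, of signalling or of these cell types in the levels of Hspa1a and Hspa1b was not tested.

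Dnajb1 had an unadjusted p under 0.05 in 2 diet comparisons at 12 weeks, and neither passed the correction in any alternative. LO mice had 31.1, 35.2, 26.6, 33.4 and 33.6 CPM, SO mice 27.4, 22.5, 22.9, 27.3 and 30.4 CPM, and PF mice 23, 22.8, 26.8, 26.7 and 31.9 CPM. Of the LO mice 4 lay above every SO mouse, and mouse 3 lay within the range of SO and PF. The log2 fold change was 0.3 ± 0.11 in LO against SO (unadjusted p = 0.0177, edgeR adjusted p = 0.999), with 4 of 5 LO mice above the SO median. It was -0.28 ± 0.11 in PF against LO (unadjusted p = 0.0221, edgeR adjusted p = 0.496), with 5 of 5 PF mice below the LO median. These comparisons share the LO mice. Leaving out the mice numbered 1 gave 0.32 and -0.25 (edgeR adjusted p = 1 and 0.496). At 32 weeks the group means of Dnajb1 were 29.6, 29.2 and 27.9 CPM in LO, SO and PF. Cell markers moved in PF against LO at 12 weeks as well. Leukocyte markers were higher in 10 of 10 (median 0.61), fibroblast in 6 of 6 (0.41) and basal in 4 of 4 (0.31). Smooth muscle markers were lower in 8 of 8 (-0.18), adipocyte in 6 of 6 (-0.31) and erythroid in 5 of 5 (-0.32). Both edgeR and DESeq2 called 0 of these, and 4 leukocyte and 2 fibroblast markers had an unadjusted p under 0.05. Skeletal muscle markers were higher in 6 of 8 (0.87), with 0 called by either tool. Of 16 cytosolic J protein genes 14 were lower (-0.08), and of 19 circadian clock genes 15 were lower (-0.26). In these 2 lists edgeR called 0 genes and DESeq2 1 and 4, against 0.522% of all genes by DESeq2. At an unadjusted p under 0.05 they had 2 and 10 genes, against 9.24% of all genes. The part of these genes and cell types in the level of Dnajb1 was not tested.

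Hsph1 had its smallest unadjusted p in the 3 comparisons of time points, none of which passed the correction. At 12 weeks, SO mice had 39.3, 51.8, 53.3, 45.5 and 49.4 CPM, and at 32 weeks 34.6, 34.9, 32.9, 46.2 and 35.4 CPM. The SO groups overlapped through mouse 4 at 32 weeks, which lay above mice 1 and 4 at 12 weeks. LO mice had 53.9, 63.1, 50, 51.2 and 54.1 CPM at 12 weeks and 36.5, 42.8, 36.2, 41.3 and 65.1 CPM at 32 weeks, where mouse 5 was the highest of all 30. PF mice ranged from 41.5 to 61.1 CPM at 12 weeks and from 35.6 to 46.1 CPM at 32 weeks. The log2 fold change of 32 against 12 weeks was -0.38 ± 0.14 in SO (unadjusted p = 0.00963, edgeR adjusted p = 0.0951), with 5 of 5 mice at 32 weeks below the median at 12 weeks. In LO it was -0.3 ± 0.14 (edgeR adjusted p = 0.212) with 4 of 5 mice below, and in PF -0.29 ± 0.14 (edgeR adjusted p = 0.476) with 5 of 5 mice below. Hsph1 thus passed no test with all 30 mice. With mouse 5 of LO at 32 weeks left out of the fit, its SO difference was -0.39 ± 0.11 with an edgeR adjusted p of 0.0356, within a range of 0.0356 to 0.212 over its alternatives, and it passed the threshold in no other alternative. None of the 3 interactions passed the test for Hsph1, with estimates of 0.09 ± 0.19, 0.01 ± 0.19 and 0.08 ± 0.19. Time point and any processing day or sequencing run cannot be told apart.

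Bag3 had the steadiest group means of the members, from 25.4 CPM in LO at 12 weeks to 27 CPM in LO at 32 weeks, a ratio of 1.06. Its range over the 30 mice was 20 to 33.6 CPM. In 5 of 6 groups the highest mouse was number 1, for example 33.2 CPM against 22.2 to 25 CPM in mice 2 to 5 of LO at 12 weeks. Its log2 fold changes lay between -0.03 and 0.09 over the 9 diet and time comparisons.

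For the constitutive HSP70, Hspa8, LO mice at 32 weeks had 889, 1020, 837, 1070 and 1290 CPM and SO mice 815, 818, 789, 932 and 885 CPM. All 5 LO mice lay above the SO median and mouse 5 of LO was the highest of all 30, but the groups overlapped. The log2 fold change of LO against SO at 32 weeks was 0.28 ± 0.1 (unadjusted p = 0.0166, edgeR adjusted p = 1), and 0.31 without the mice numbered 1. In LO mice, 32 against 12 weeks gave 0.24 ± 0.11 (unadjusted p = 0.0405, edgeR adjusted p = 0.218), with 4 of 5 mice at 32 weeks above the median at 12 weeks. Both comparisons use the LO mice of 32 weeks. In PF and SO mice this time difference was 0.04 ± 0.11 each, and the interaction of LO against SO with time was 0.2 ± 0.16 (edgeR adjusted p = 1).

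Hsp90aa1 had group means from 214 CPM in LO at 32 weeks to 263 CPM in PF at 12 weeks and a range of 162 to 318 CPM over mice. The highest value belonged to mouse 2 of LO at 12 weeks, the mouse with the lowest Pbsn. No comparison gave an unadjusted p under 0.05 for Hsp90aa1. The nearest were 32 against 12 weeks in LO with -0.24 ± 0.12 (unadjusted p = 0.0538) and PF against LO at 32 weeks with 0.23 ± 0.12 (unadjusted p = 0.0791), and the latter was 0.11 without the mice numbered 1.

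For Hspb1, the time difference in SO mice passed the threshold without the mice numbered 1 and with the replicate number as a block, and not in the fit of all mice without a block. SO mice had 91.6, 73.9, 62.5, 54.6 and 72 CPM at 12 weeks and 74.4, 37.3, 50.5, 45.2 and 46.5 CPM at 32 weeks. PF mice had 98.4, 83.3, 56.5, 69.5 and 58.6 CPM at 12 weeks and 97.4, 50.1, 49.3, 45.2 and 38.9 CPM at 32 weeks. Mouse 1 was the highest of each group. Mice 2 to 5 at 32 weeks lay below mice 2 to 5 at 12 weeks in both diets, while with mouse 1 the groups overlapped. With all mice the log2 fold change of 32 against 12 weeks was -0.48 ± 0.23 in SO (unadjusted p = 0.0472, edgeR adjusted p = 0.245), with 4 of 5 mice at 32 weeks below the median at 12 weeks. Without the mice numbered 1 it was -0.54 ± 0.13 (edgeR adjusted p = 0.0184) and with the replicate block on all 30 mice -0.5 ± 0.12 (edgeR adjusted p = 0.0155), within a range of 0.0155 to 0.449 over all alternatives. In PF the value was -0.38 ± 0.23 with all mice (edgeR adjusted p = 0.593) and -0.54 without the mice numbered 1 (unadjusted p = 0.000417, edgeR adjusted p = 0.133, over all alternatives 0.124 to 0.882). LO mice had 90.8, 51.3, 54.3, 60.3 and 55.7 CPM at 12 weeks and 83.5, 53.7, 57.6, 46.6 and 43.4 CPM at 32 weeks, with a log2 fold change of -0.13 ± 0.23. The LO against SO difference did not change with time at the threshold, with an interaction of 0.35 ± 0.33 with all mice and 0.42 without those numbered 1 (unadjusted p = 0.0313, edgeR adjusted p = 0.865).

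Smooth muscle markers moved in the direction of Hspb1 with time. All 8 were lower at 32 than at 12 weeks in each diet, with median log2 fold changes of -0.25 in LO, -0.12 in SO and -0.21 in PF, and edgeR and DESeq2 called 0 of 8, with 1, 0 and 3 at an unadjusted p under 0.05. In the fit without the mice numbered 1, in which Hspb1 passed in SO, the medians were -0.24, -0.26 and -0.18, with 0 called by edgeR and 3, 4 and 3 at an unadjusted p under 0.05. Their summed level in SO mice was 3090, 3010, 2420, 3330 and 3180 CPM at 12 weeks and 3570, 2270, 2540, 2380 and 2550 CPM at 32 weeks. In PF mice it was 3590, 2170, 2580, 2690 and 2810 CPM at 12 weeks and 2930, 2300, 2400, 1950 and 2220 CPM at 32 weeks. Their part in the level of Hspb1 was not tested, and in bulk tissue fewer cells of a type and less RNA per cell cannot be told apart.

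For the mitochondrial pair at 32 weeks, PF against SO had an unadjusted p under 0.05 for both genes, and neither passed the correction. For Hspd1, PF mice had 150, 148, 151, 144 and 152 CPM and SO mice 118, 129, 120, 147 and 130 CPM. Of the SO mice 4 lay below every PF mouse, and mouse 4 lay among them. For Hspe1, PF mice had 69.7, 54.2, 54.1, 49.8 and 58.6 CPM and SO mice 44.2, 47.4, 47.6, 51.9 and 52.3 CPM. Mouse 1 of PF was the highest of all 30 for Hspe1, and mouse 4 of PF lay within the range of SO. The log2 fold change was 0.23 ± 0.09 for Hspd1 (unadjusted p = 0.0167, edgeR adjusted p = 0.396) and 0.26 ± 0.11 for Hspe1 (unadjusted p = 0.0302, edgeR adjusted p = 0.423), with 5 of 5 PF mice above the SO median for each. In the fit without the mice numbered 1 the values were 0.19 and 0.13 (edgeR adjusted p = 0.489 and 0.567). LO against SO, which shares the SO mice, gave 0.17 ± 0.09 for Hspd1 and 0.18 ± 0.11 for Hspe1 (edgeR adjusted p = 1 for both), and 0.2 and 0.22 without the mice numbered 1 (edgeR adjusted p = 0.931 for both). PF against LO gave 0.06 ± 0.09 and 0.08 ± 0.11, and -0.01 and -0.08 without those mice. In PF against SO at 12 weeks Hspd1 had 0.03 ± 0.09 and Hspe1 0.11 ± 0.09, and the interactions with time were 0.19 ± 0.12 and 0.13 ± 0.14 (edgeR adjusted p = 0.7 and 0.843).

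**Figure D3:**
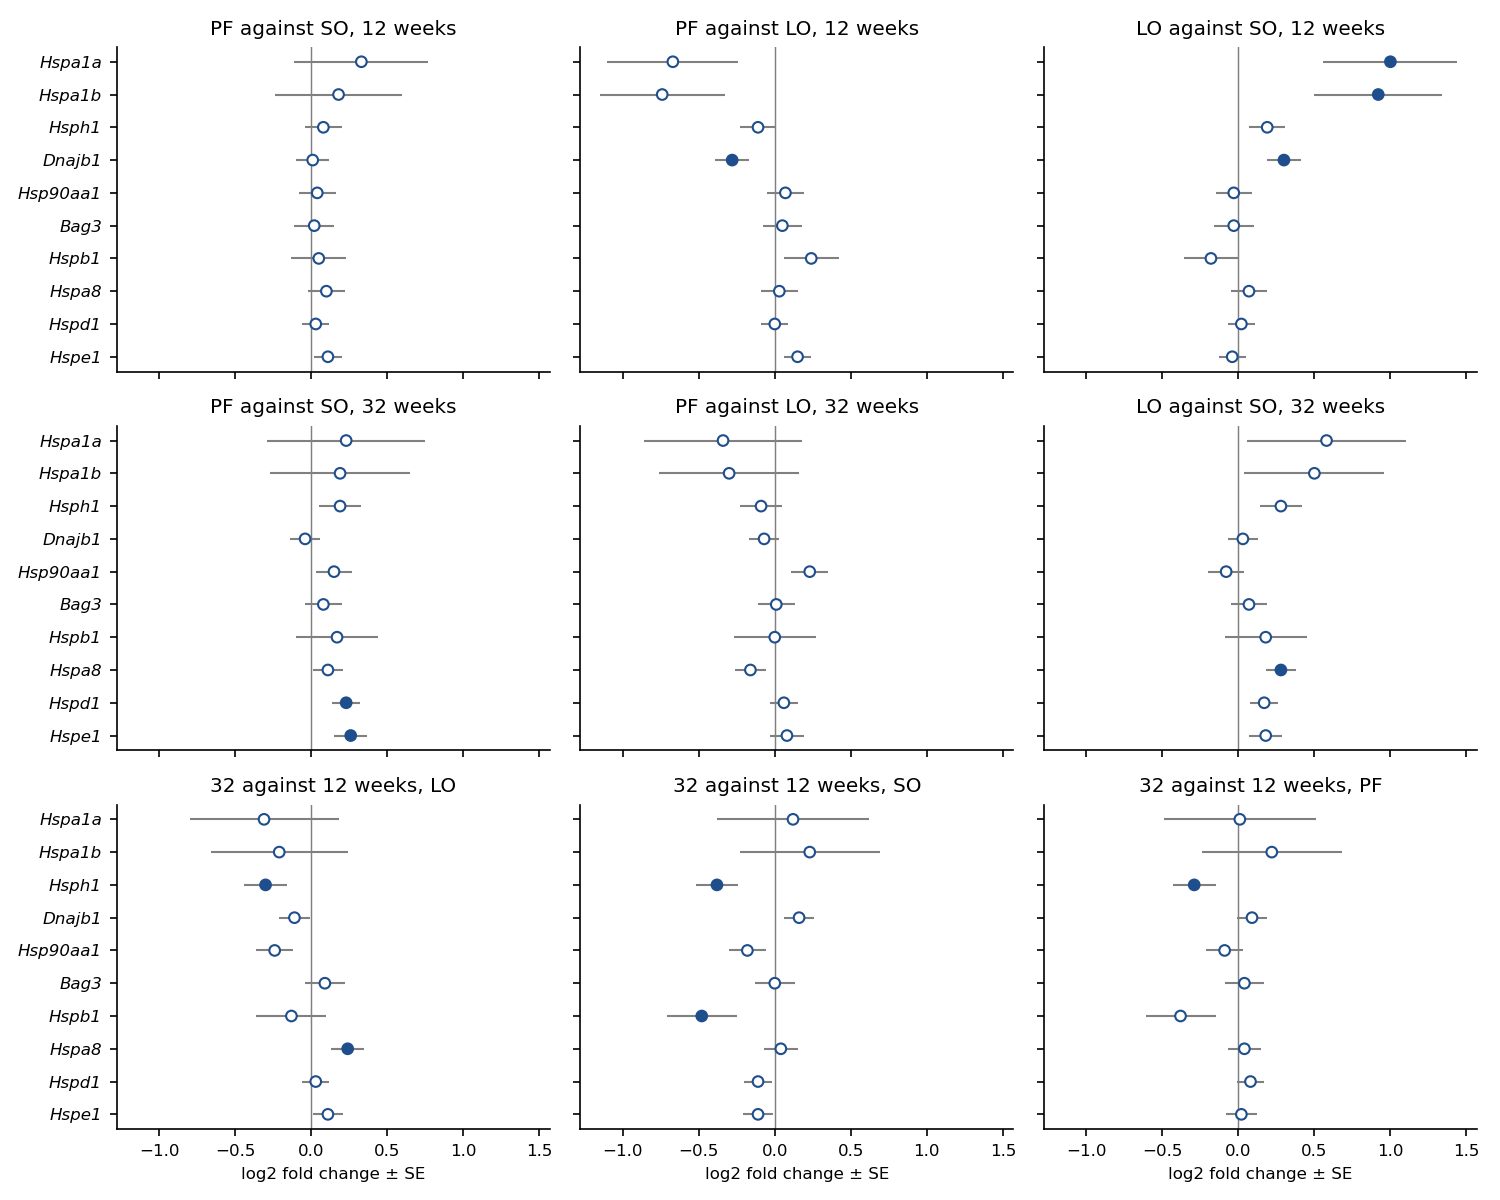
Log2 fold change of each member with its SE in the 6 diet and 3 time comparisons (edgeR); filled points have an unadjusted p under 0.05. Hspa1a (1) and Hspa1b (0.92) in LO against SO at 12 weeks lie farthest above 0, and no point passed the correction over all genes.

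The counts over all 10 members are read against those over all genes, with a member or gene called at an adjusted p under 0.05. In PF against SO at 12 weeks edgeR called 0 members and 0% of 15873 genes, DESeq2 called 0 members and 1.26% of genes, and 0 members against 7.99% of genes had an unadjusted edgeR p under 0.05. In PF against LO at 12 weeks edgeR called 0 members and 0% of genes, DESeq2 0 members and 0.522% of genes, and 1 member (Dnajb1) against 9.24% of genes had an unadjusted p under 0.05. In LO against SO at 12 weeks edgeR called 0 members and 0% of genes, DESeq2 0 members and 0% of genes, and 3 members (Hspa1a, Hspa1b and Dnajb1) against 4.28% of genes had an unadjusted p under 0.05. The median log2 fold change of the members was 0.07, 0.02 and 0.05 in these comparisons, against -0.01, 0.00 and 0.00 over all genes. Of the members 10, 6 and 6 of 10 were higher, against 44.8%, 49.9% and 50.6% of genes.

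At 32 weeks, in PF against SO, edgeR called 0 members and 0% of 16218 genes, DESeq2 0 members and 0.716% of genes, and 2 members (Hspd1 and Hspe1) against 10.8% of genes had an unadjusted p under 0.05. For PF against LO at 32 weeks the counts were 0 members and 0% of genes by edgeR, 0 members and 0.571% of genes by DESeq2, and 0 members against 8.6% of genes at an unadjusted p under 0.05. For LO against SO at 32 weeks they were 0 members and 0% of genes by edgeR, 0 members and 0.0234% of genes by DESeq2, and 1 member (Hspa8) against 3.48% of genes at an unadjusted p under 0.05. Of the 10 members, 9 were higher in PF than in SO, 4 in PF than in LO and 9 in LO than in SO, against 49.3%, 51.2% and 49.3% of genes. Their medians were 0.18, -0.04 and 0.18, against 0.00, 0.01 and 0.00 over all genes.

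With time in LO, edgeR called 0 members and 2.7% of 16605 genes, DESeq2 0 members and 6.7% of genes, and 2 members (Hsph1 and Hspa8) against 20.5% of genes had an unadjusted p under 0.05. In SO, edgeR called 0 members and 6.46% of genes, DESeq2 0 members and 7.84% of genes, and 2 members (Hsph1 and Hspb1) against 19.7% of genes had an unadjusted p under 0.05. In PF, edgeR called 0 members and 0.0301% of genes, DESeq2 0 members and 0.291% of genes, and 1 member (Hsph1) against 10.2% of genes had an unadjusted p under 0.05. The members' medians were -0.12, -0.05 and 0.03, against -0.01, 0.00 and 0.00 over all genes, with 4, 4 and 7 of 10 higher at 32 weeks against 47.8%, 49.2% and 50.7% of genes. The change of the diet differences with time gave 0 members in each of the 3 interactions by edgeR, by DESeq2 and at an unadjusted p under 0.05. Over all genes these shares were 0%, 0.226% and 9.49% for PF against SO, 0%, 0.098% and 7.79% for PF against LO, and 0%, 0% and 3.33% for LO against SO.

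Other chaperone lists give the surroundings of the members. The 5 genes of the heat-shock factor list included Hsf1, with a mean of 24.8 CPM, and Hsf2, with 21.8 CPM. None of the 5 was called by edgeR or DESeq2 in any comparison, with 1 or 2 at an unadjusted p under 0.05 in 3 of the 12, and the smallest adjusted p in a diet or time comparison was that of Hsf2 in LO with time (-0.33 ± 0.11, edgeR adjusted p = 0.0925). Hsf2 also had 0.28 ± 0.1 in PF against LO at 32 weeks (unadjusted p = 0.0106).

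In PF against SO at 32 weeks, most genes of 4 chaperone lists were higher in PF, as Hspd1 and Hspe1 were, against 49.3% of all genes. All 14 TRiC and prefoldin genes were higher in PF, with a median of 0.18, 0 called by edgeR or DESeq2 and 9 at an unadjusted p under 0.05, led by Cct3 (0.2 ± 0.07). Of 16 mitochondrial chaperones, which include Hspd1 and Hspe1, 15 were higher with a median of 0.16, 0 called by either tool and 7 at an unadjusted p under 0.05, among them Dnaja3 (0.15 ± 0.05) and Grpel1 (0.25 ± 0.09). Of 18 chaperones of the endoplasmic reticulum (ER), 17 were higher with a median of 0.23 and 11 at an unadjusted p under 0.05, led by Manf (0.57 ± 0.1) and Hspa5 (0.54 ± 0.11), of which edgeR called 0 and DESeq2 5. Of 20 genes for HSP90 and its cochaperones, Hsp90aa1 included, 18 were higher with a median of 0.14, 0 called by either tool and 1 at an unadjusted p under 0.05. Over all genes the median was 0.00 and 10.8% had an unadjusted p under 0.05. Mouse 1 had the highest sum of the PF group in each of these lists, for example 1830 CPM for TRiC and prefoldin against 1570 to 1650 CPM in mice 2 to 5. In the fit without the mice numbered 1 the medians were 0.1, 0.13, 0.17 and 0.06, with 12 of 14, 14 of 16, 17 of 18 and 16 of 20 genes higher, 0 called by edgeR and 4, 5, 9 and 0 at an unadjusted p under 0.05. In LO against SO at 32 weeks, 13 of 14, 13 of 16, 13 of 18 and 9 of 20 genes of these lists were higher in LO. Their medians were 0.09, 0.08, 0.04 and -0.01, in the same order. In PF against LO, 13, 13, 17 and 18 genes were higher in PF, with medians of 0.09, 0.06, 0.23 and 0.1. Without the mice numbered 1, these were 6, 8, 16 and 10 genes, with medians of 0.00, 0.01, 0.15 and 0.00. The direction in PF against SO was not particular to these lists. Of 24 immediate early genes 23 were higher in PF with a median of 0.53, 0 called by edgeR or DESeq2 and 3 at an unadjusted p under 0.05, and the median was 0.36 with 20 of 24 higher without the mice numbered 1. Of 22 other HSF1 targets 19 were higher with a median of 0.17, 0 called by either tool and 2 at an unadjusted p under 0.05. The part of handling in these levels was not tested.

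Markers of fat and blood also moved with PF at 32 weeks. All 5 erythroid markers were higher in PF than in SO with a median of 2.48, 0 called by edgeR, 3 by DESeq2 and 5 at an unadjusted p under 0.05, and Hbb-bs was the most abundant with a mean of 40.8 CPM. Their summed level was 140, 129, 216, 500 and 42.4 CPM in PF mice and 78.7, 26.9, 33.8, 31.6 and 34.1 CPM in SO mice. Of 6 adipocyte markers 5 were higher with a median of 1.84, 0 called by edgeR or DESeq2 and 4 at an unadjusted p under 0.05, and Fabp4 was the most abundant with a mean of 116 CPM. Their summed level was 555, 734, 57.4, 234 and 727 CPM in PF mice and 52.8, 37.1, 212, 28.6 and 247 CPM in SO mice. All of these markers had counts. Other markers were lower in PF than in SO, leukocyte in 10 of 10 (median -0.29), smooth muscle in 8 of 8 (-0.14) and basal in 4 of 4 (-0.2), with 0 called by edgeR or DESeq2 and 0, 1 and 0 at an unadjusted p under 0.05. The part of these tissues in the levels of Hspd1 and Hspe1 was not tested.

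With time, edgeR called genes in the lists around the members. The cytosolic J protein gene Dnaja4 fell in LO (-0.35 ± 0.08, edgeR adjusted p = 0.0235), the only gene called of 16 for J proteins. ER chaperones called in LO were Hyou1 (-0.54 ± 0.12), Hspa13 (-0.39 ± 0.09) and Dnajc3 (-0.33 ± 0.09), 3 of 18, all downward, and the call of Dnajc3 was lost without the filter on low counts, without the mice numbered 1 and in 22 of 30 fits that left out 1 mouse. In LO, leaving out mouse 2 or 3 at 12 weeks or mouse 3 at 32 weeks each ended the calls of Dnaja4, Hyou1 and Hspa13, mouse 1 at 32 weeks those of Dnaja4 and Hspa13, and mouse 5 at 12 weeks that of Hspa13, with adjusted p of at most 0.124. In SO the called ER chaperones were Creld2 (-0.67 ± 0.16), Hyou1 (-0.5 ± 0.12) and Dnajc3 (-0.34 ± 0.09), and 18 of 18 were lower with a median of -0.26. The SO call of Dnajc3 was lost without mouse 3 at 12 weeks or mouse 4 at 32 weeks (largest adjusted p = 0.0539). The other HSF1 target list had 1 of 22 genes called in LO, again Dnaja4. The exchange factors of HSP70, which include Hsph1 and Bag3, were lower at 32 weeks in 10 of 10 genes in SO and 8 of 10 in LO, both with a median of -0.14, with 0 called by edgeR or DESeq2 and 2 at an unadjusted p under 0.05 in each. In PF 6 of 10 were lower with a median of -0.03, again with 0 called by edgeR or DESeq2 and 2 at an unadjusted p under 0.05. Without the mice numbered 1, edgeR called 1 of 10 exchange factors in SO, with 3 at an unadjusted p under 0.05. In that fit it also called 1 gene in SO in each list of J proteins, HSP90 and its cochaperones, mitochondrial chaperones, TRiC and prefoldin, and other HSF1 targets. Of the ER chaperones it called 4 of 18 in SO. Over all genes, edgeR called 2.7% with time in LO and 6.46% in SO in the fit of all mice. The share without the mice numbered 1 is not given here, and 1 call in a list is not read as a result about that list.

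Leukocyte, basal epithelial, skeletal muscle, endothelial and erythroid markers moved with time beside Hsph1 and Hspb1. In SO, 10 of 10 leukocyte markers were higher at 32 weeks with a median of 1.68 and 9 called by edgeR, led by Cd3g (2.24 ± 0.4) and Ptprc (1.85 ± 0.37), and Lyz2 was the most abundant with a mean of 129 CPM. Their summed level was 131, 159, 162, 169 and 188 CPM at 12 weeks and 205, 360, 480, 665 and 433 CPM at 32 weeks. In LO, 10 of 10 were higher with a median of 0.86, 0 called by edgeR, 5 by DESeq2 and 6 at an unadjusted p under 0.05, and in PF 8 of 10 with a median of 0.06. Of 4 basal markers, 4 were higher at 32 weeks in LO (median 0.77), 4 in SO (0.53) and 3 in PF (0.03). In LO edgeR called 3, Krt15 (1.24 ± 0.18), Trp63 (0.64 ± 0.12) and Krt5 (0.9 ± 0.2). In SO it called 2, Krt15 (0.72 ± 0.18) and Trp63 (0.44 ± 0.12), and in PF 0. The call of Krt5 was lost without mouse 3 of LO at 12 weeks (edgeR adjusted p = 0.0586), that of Krt15 in SO without mouse 4 at 32 weeks (edgeR adjusted p = 0.0821), and that of Trp63 in SO without the filter and in 8 fits that left out an SO mouse (edgeR adjusted p up to 0.128). The basal sum in SO was 92.8, 107, 75.9, 94.2 and 104 CPM at 12 weeks and 155, 109, 127, 163 and 152 CPM at 32 weeks. The median log2 fold change of the 8 luminal markers was 0.00, 0.02 and -0.01 in LO, SO and PF. Skeletal muscle markers were higher at 32 weeks in 7, 7 and 6 of 8 in LO, SO and PF, with medians of 2.99, 2.78 and 1.79, 0 called by edgeR or DESeq2 and 5, 4 and 1 at an unadjusted p under 0.05. In the fit without the mice numbered 1 the medians were 0.71, 2.97 and 1.66. Their most abundant gene was Acta1 (mean 78.9 CPM), and their sum in SO was 121, 85.8, 107, 82.5 and 91.6 CPM at 12 weeks and 174, 49.3, 337, 341 and 53.7 CPM at 32 weeks. All 5 endothelial markers were higher at 32 weeks in LO and SO, with medians of 0.29 and 0.18 (0.11 and 0.29 without the mice numbered 1). In SO edgeR called 1, Emcn, and DESeq2 1. The edgeR call was lost without mouse 4 at 32 weeks (edgeR adjusted p = 0.0642). All 5 erythroid markers were higher in PF with a median of 2.04, 0 called by edgeR, 3 by DESeq2 and 5 at an unadjusted p under 0.05. In SO 4 of 5 were lower (median -0.28). The part of these cell types in the time differences of Hsph1 and Hspb1 was not tested.

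**Figure D4:**
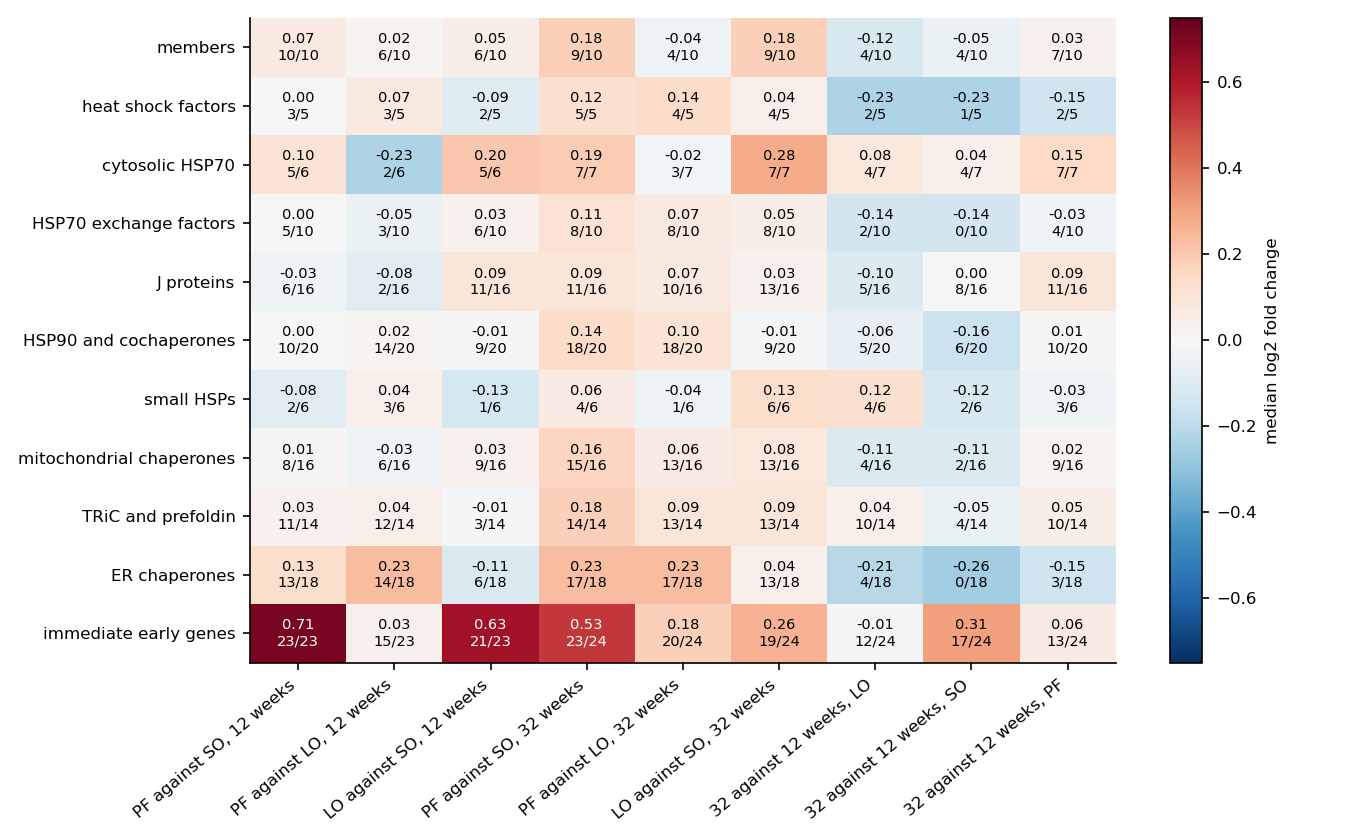
Median log2 fold change of the members and of other lists in the 9 diet and time comparisons, by colour and number, with the number of genes higher out of those tested. In PF against SO at 32 weeks 14 of 14 TRiC and prefoldin genes and 17 of 18 ER chaperones were higher, beside 9 of 10 members.

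Members were also compared between mice of the same group. Each member's deviation from its group mean of log2 CPM was correlated with that of Hspa1b over 30 mice, with 100000 permutations within groups and adjustment over the 9 members. Hspa1a followed Hspa1b closely with r = 0.97 and rho = 0.94 (permutation p = 1e-05 for both, the smallest the permutations can give, adjusted p = 4.5e-05 and 9e-05). The r was 0.96 without the 2 mice farthest from the median, which were mouse 1 of LO and mouse 1 of SO at 32 weeks, and 0.94 without the 6 mice numbered 1. The part of the sequence that both genes share in this r was not tested.

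Bag3 had r = 0.78 and rho = 0.74 with Hspa1b (permutation p = 1e-05, the smallest they can give, and 2e-05, adjusted p = 4.5e-05 and 9e-05), and r = 0.72 without the 2 farthest mice. Within the time points r was 0.78 at 12 and 0.81 at 32 weeks. Without the mice numbered 1 it was 0.47 with an adjusted permutation p of 0.0543 and was not called. Hspb1 had r = 0.68 and rho = 0.5 (permutation p = 0.00029 and 0.00988, adjusted p = 0.00087 and 0.0296), and r = 0.59 without the 2 farthest mice. Without the mice numbered 1 the r of Hspb1 was 0.05 (adjusted permutation p = 0.951), so this relation rests on them. Dnajb1 had r = 0.42 and rho = 0.4 (adjusted permutation p = 0.0801 and 0.102), with r = 0.4 without the 2 farthest mice and 0.52 without the mice numbered 1. The other 5 members had r between -0.32 and -0.07, none passing the threshold. The 3 called members had an r of at least 0.68, a limit reached in size by 2.16% of 16604 genes.

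All 45 pairs of members were then compared in the same way, a choice made after the data had been seen. By r, 17 pairs passed an adjusted permutation p under 0.05, 16 with a positive and 1 with a negative r, and 9 of them passed without the mice numbered 1. The smallest r called was 0.52 in size, a limit reached by 17 of the 45 pairs and by 13.5% of 137854710 pairs of all genes, and without the mice numbered 1 by 13 of 45 and 10%. The pairs of Hspb1 with Hspa1a, Hspa1b and Bag3 and that of Hspa1a with Bag3 were among those lost. Without the mice numbered 1 the r of Hspb1 was 0.11 with Hspa1a and 0.05 with Hspa1b. With Bag3 it changed sign, from 0.58 to -0.26 (adjusted permutation p = 0.5). Of the 10 pairs among Hspa8, Hspd1, Hspe1, Hsph1 and Hsp90aa1, 9 passed, and 7 without the mice numbered 1, while Hsph1 and Hspe1 passed in neither. The r of the pairs no longer called stayed about as large. It was 0.58 with all mice and 0.58 without the mice numbered 1 for Hspa8 and Hsp90aa1, and 0.59 and 0.52 for Hspa8 and Hspe1. Hspa8 and Hspd1 had r = 0.84 and rho = 0.83 (permutation p = 1e-05, the smallest possible, and 4e-05, adjusted p = 0.00015 and 0.00045), with 0.81 without the 2 farthest mice and 0.86 without the mice numbered 1. Hsph1 and Hspd1 had r = 0.82 and rho = 0.79 (permutation p = 4e-05 and 5e-05, adjusted p = 0.00036 and 0.00045), with 0.74 and 0.83 without those mice. Hspd1 and Hspe1, whose starts lie head to head with the shared run of 4 units, had r = 0.76 and rho = 0.76 (permutation p = 2e-05 and 3e-05, adjusted p = 0.000225 and 0.00045), with 0.69 and 0.72 without those mice. The negative pair was Hspb1 and Hspd1, with r = -0.56 and rho = -0.62 (permutation p = 0.00141 and 0.00116, adjusted p = 0.00488 and 0.00522), r = -0.58 without the 2 farthest mice and -0.46 without the mice numbered 1 (adjusted permutation p = 0.187, not called). Within the time points it was -0.58 at 12 and -0.55 at 32 weeks.

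**Figure D5:**
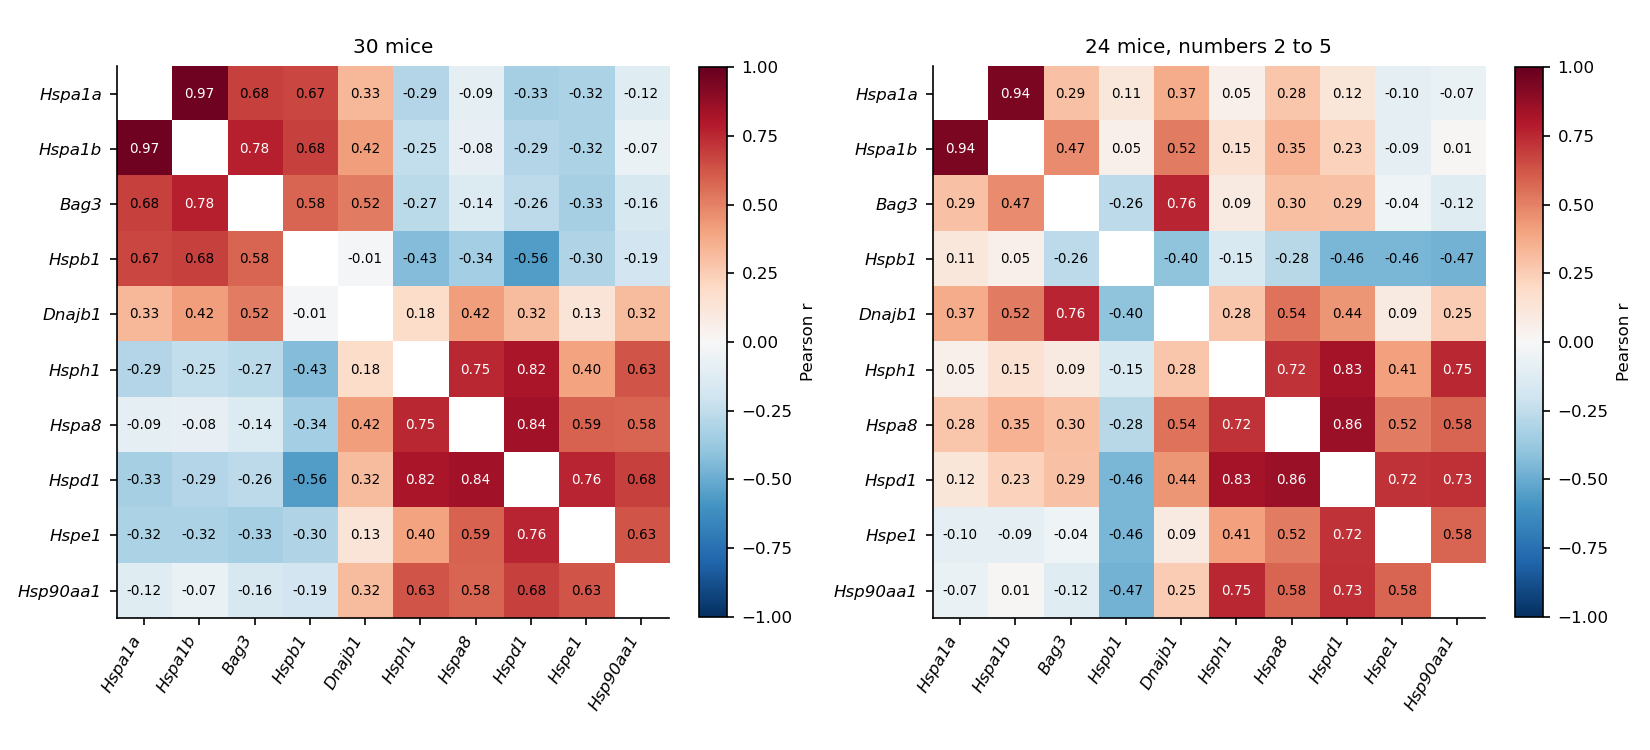
Pearson r between the members' deviations from their group means, over 30 mice and over the 24 mice without those numbered 1. Hspa8, Hspd1, Hspe1, Hsph1 and Hsp90aa1 keep positive values in both panels (Hspa8 and Hspd1, 0.84 and 0.86), while that of Hspa1b and Hspb1 goes from 0.68 to 0.05.

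The 10 genes outside the lists whose deviations were most like the mean deviation of the members were Rrs1, Hes1, Gm7536, Sox9, 1700023F06Rik, Actb, Cdt1, Pde12, Ptma and Timm8a1, with r from 0.75 to 0.84 over 30 mice among 16380 genes. They were chosen by this r, so it carries no test. The mean deviation of the members was led by the genes with the widest spread: Rrs1 had r = 0.83 with Hspa1b and -0.15 with Hspd1, and Sox9 0.83 and -0.33. Actb, with a mean of 532 CPM, was highest in mouse 1 in all 6 groups, as Hspa1b and Hspb1 were, at 650, 539 and 681 CPM in LO, SO and PF at 12 weeks.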

How the data were processed

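The deposited tables hold raw counts of read pairs per gene for 30 mice, which the authors made with TopHat2 and HTSeq from stranded mRNA libraries, on the genome build GRCm38.p6. The annotation release and the strand setting are not stated. Symbols and positions came from GENCODE M21, which matched 37607 of 39179 identifiers. Counts set aside by HTSeq stayed out of library sizes: 6.67% to 12.2% of records fell on no gene and 0.831% to 1.18% on several genes.

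Genes were filtered with filterByExpr, scaled by TMM and tested in edgeR 4.0.16 (R 4.3.3) by its quasi-likelihood F test, two-sided. Diets were fitted within each time point, 3 together, and time and interactions in a fit of all 6 groups. Benjamini-Hochberg adjustment ran over all genes tested, with a threshold of 0.05, and the SE was taken from the F statistic. Log2 CPM used a prior count of 2. Alternatives were DESeq2 1.42.0, RLE size factors, no filter on low counts, only the 2 diets compared, the replicate number as a block, leaving out the mice numbered 1, each mouse left out in turn and, for correlations, a prior count of 0.5. The tests were tested on simulated data.

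The members and lists were chosen with earlier results of these data known. The text names all 10 members. From each chaperone list it may name every gene called, up to 8 per comparison, and otherwise up to 3 with the smallest p, from other lists the 3 most abundant genes and the 3 with the smallest p, and the 10 genes outside the lists most like the members.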

Additional observations from a re-analysis of the deposited data

Results flagged for a closer look

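In each of the 60 combinations of a member and a group, the gap between the highest or lowest mouse and its neighbour was compared with the range of the 5 mice. In 12 of them a mouse stood far from the others. For independent, normally distributed values the limit used would give about 1 in 20, or 3. The values here were CPM of members that vary together, such as Hspa1a and Hspa1b (r = 0.97), so 3 is not an expected count for them. In all 12 the mouse was high, and in 9 it was the mouse numbered 1.

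Hspa1a stood high in mouse 1 of SO at 12 weeks (5.7 CPM, next 2.82) and at 32 weeks (8.01 CPM, next 2.91). Hspa1b did so in mouse 1 of SO at 32 weeks (20.9 CPM, next 8.69). Bag3 stood high in mouse 1 of LO at 12 weeks (33.2 CPM, next 25) and at 32 weeks (33.6 CPM, next 26.9). Hspb1 did so in mouse 1 of LO at 12 weeks (90.8 CPM, next 60.3) and of PF at 32 weeks (97.4 CPM, next 50.1). In mouse 1 of PF at 32 weeks, Dnajb1 was at 31.1 CPM (next 27.6) and Hsp90aa1 at 297 CPM (next 244).

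Among the other mice, Hsph1 stood high in mouse 5 of LO at 32 weeks (65.1 CPM, next 42.8) and in mouse 4 of SO at 32 weeks (46.2 CPM, next 35.4), and Hsp90aa1 in mouse 2 of LO at 12 weeks (318 CPM, next 246). What sets these mice apart was not tested.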

How the results depend on the processing

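The members' counts stayed at 0 in 333 of 336 alternatives. The exceptions all concern 32 against 12 weeks in SO, where 1 member was called: Hspb1 with the replicate number as a block (-0.5 ± 0.12, edgeR adjusted p = 0.0155) and without the mice numbered 1 (-0.54 ± 0.13, edgeR adjusted p = 0.0184), and Hsph1 without mouse 5 of LO at 32 weeks (leaving out 1 mouse gave 0 to 1). In the fit of all mice, edgeR called 6.46% of all genes in that comparison. Of 1113 alternatives for 39 fold changes of members, 8 had the opposite sign, all with 1 mouse left out. Of the 9 correlations with Hspa1b, 3 were called with all mice, 3 with a prior count of 0.5 and 1 without the mice numbered 1. Of the 17 called pairs among all 45, 9 were called without the mice numbered 1. The cause was not tested.

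The count over all genes moved more, in 56 of 336 alternatives. DESeq2 called 221 genes in PF against SO and 76 in PF against LO at 12 weeks, at 32 weeks 109 in PF against SO, 84 in PF against LO and 6 in LO against SO, 1096 and 52 with time in LO and PF, and 44 and 14 in the interactions of PF against SO and PF against LO, where edgeR called 448 and 5 with time in LO and PF and 0 in the rest. Without the mice numbered 1, edgeR called 1 gene in PF against SO at 12 weeks and 0 with time in PF, without the filter 0 with time in PF, and with only the 2 diets 1 in LO against SO at 32 weeks.

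Leaving out 1 mouse gave 0 to 131 genes in PF against SO at 12 weeks (131 without mouse 5 of PF), 0 to 1 in PF against LO at 12 weeks (mouse 5 of LO), 0 to 1 in PF against SO at 32 weeks (mouse 2 of PF), and 0 to 4 in the interaction of PF against SO (4 without mouse 4 of LO and 3 without mouse 5 of PF, both at 12 weeks). With time in LO it gave 47 to 1043 genes: 101, 47 and 714 without mice 2, 3 and 4 of LO at 12 weeks, 250, 82, 1043 and 186 without mice 1, 3, 4 and 5 of LO at 32 weeks, and 716 without mouse 1 of PF at 32 weeks. With time in SO it gave 226 to 1556 genes around 1073: 673, 514 and 489 without mice 1, 4 and 5 at 12 weeks and 226 without mouse 4 at 32 weeks. With time in PF it gave 0 to 7 genes, and 26 of the 30 mice moved the count of 5.

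The replicate block called 668, 1224 and 6 genes with time in LO, SO and PF and 0 in the diet comparisons. Mice with the same number deviated together with a mean correlation of 0.06 at 12 and 0.13 at 32 weeks, against -0.01 and -0.03 for different numbers. For number 1 it was 0.31 to 0.47 and 0.37 to 0.5, and for the other numbers -0.18 to 0.13 and -0.4 to 0.36. Only 3 and 6 of 15 mice were closest to their own number. The numbers as a whole thus did not pair the mice, while those numbered 1 deviated together in every pair.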
